A study of Arabidopsis thaliana with 28 samples.

Results

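Expression of 6 brassinosteroid genes, DWF4, CPD, ROT3, CYP90D1, CYP85A2 (also BR6OX2) and BAS1, was followed through 1 probe set each, out of the 22746 probe sets of an Arabidopsis thaliana expression array. They were chosen by name, with earlier results of these data known. All 6 were measured on all 28 arrays, with no filter on low values. The pairing of each probe set with its gene is the one the selection was made with, namely 252184_AT with DWF4 (locus AT3G50660), 250752_AT with CPD (AT5G05690), 246216_AT with ROT3 (AT4G36380), 256787_AT with CYP90D1 (AT3G13730), 256598_AT with CYP85A2 (AT3G30180) and 267614_AT with BAS1 (AT2G26710). The pairing was not checked against an annotation of the array, while the locus codes come from RefSeq gene symbols, which matched for 6 of 6. Shoots of 3-week-old Col-0 plants were collected 4 h into a 12 h light period, and every replicate pooled 14 plants. The 14 groups of 2 biological replicates were wild type, mutants of BAM7 (bam7), of BAM8 (bam8) and of both genes (bam7 bam8), the lines BAM7_Ox and BAM8_Ox, and for each of BAM7 and BAM8 a DNA_Ox, Cat_Ox, Lig_Ox and N_Ox line. No group was treated. Ox lines are called overexpression lines here. The labels give neither the promoter, the number of independent lines nor the genetic background of the Ox lines, and they do not spell out the suffixes DNA, Cat, Lig and N. Levels are log2 intensities of 1 probe set, and differences are log2 differences between group means of that probe set.

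Brassinosteroids are plant steroid hormones that promote cell expansion, and mutants that cannot make or sense them are dwarfs. Active hormone is made from plant sterols by a chain of oxidations, several of them by cytochrome P450 enzymes of the CYP90 and CYP85 families, and it is removed by further oxidation, in which BAS1 takes part. The hormone acts through the transcription factors BZR1 and BES1, which repress several synthesis genes, DWF4 and CPD among them. BAM7 and BAM8 carry a DNA-binding domain of the BZR1 type joined to a domain that resembles beta-amylase, and the study asks what the enzyme-like domain contributes to DNA recognition and transcriptional activation.

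Array medians lay between 23.5 and 25.8 intensity units, and replicate arrays correlated with Pearson r from 0.9897 to 0.9972 across probe sets, which are not independent replicates. BAM7-Cat_Ox gave the lowest r, with 254 probe sets differing more than 2-fold between its replicates, against 6 to 78 in the other groups. The 4 arrays of lowest 25th percentile were the first replicates of bam7, BAM7_Ox and BAM8-Lig_Ox and the second of BAM8-DNA_Ox. Over the 33 comparisons made, the median difference of all probe sets lay between -0.07 and 0.07. Every call reported here is an adjusted p under 0.05 from limma's moderated test, with Benjamini-Hochberg adjustment over all probe sets of a comparison and an error variance shared by the 14 groups. In fits restricted to the groups of each comparison, 1 of the 24 calls made for the 6 genes remained, that of DWF4 in BAM7-N_Ox against BAM7_Ox. The other calls were not made in such fits, which have few degrees of freedom, and the cause was not tested. In shoot RNA, fewer cells expressing a gene and less RNA of it per cell cannot be told apart.

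DWF4, CPD, CYP85A2 and ROT3 differed between the 14 groups by more than the replicate spread, whereas no such difference was detected for CYP90D1 and BAS1. In the moderated F test across groups, the adjusted p was 5.56e-06 for CPD, 9.32e-06 for CYP85A2, 0.000585 for ROT3 and 0.00106 for DWF4, against 0.165 for CYP90D1 and 0.797 for BAS1. Of all probe sets, 6.15% passed the same test. Group means spanned 1.85 on the log2 scale for ROT3, 1.68 for CYP85A2, 1.25 for DWF4 and 1.01 for CPD. The median SD between replicates was 0.124 for ROT3, 0.14 for CYP85A2, 0.144 for DWF4 and 0.0461 for CPD. Within each array, ROT3 lay under the median intensity on 26 of 28 arrays and BAS1 on 25. Neither lay under the 25th percentile on any, though ROT3 lay close to it, at percentile 25.4, on BAM7-Cat_Ox replicate 2.

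**Figure D1:**
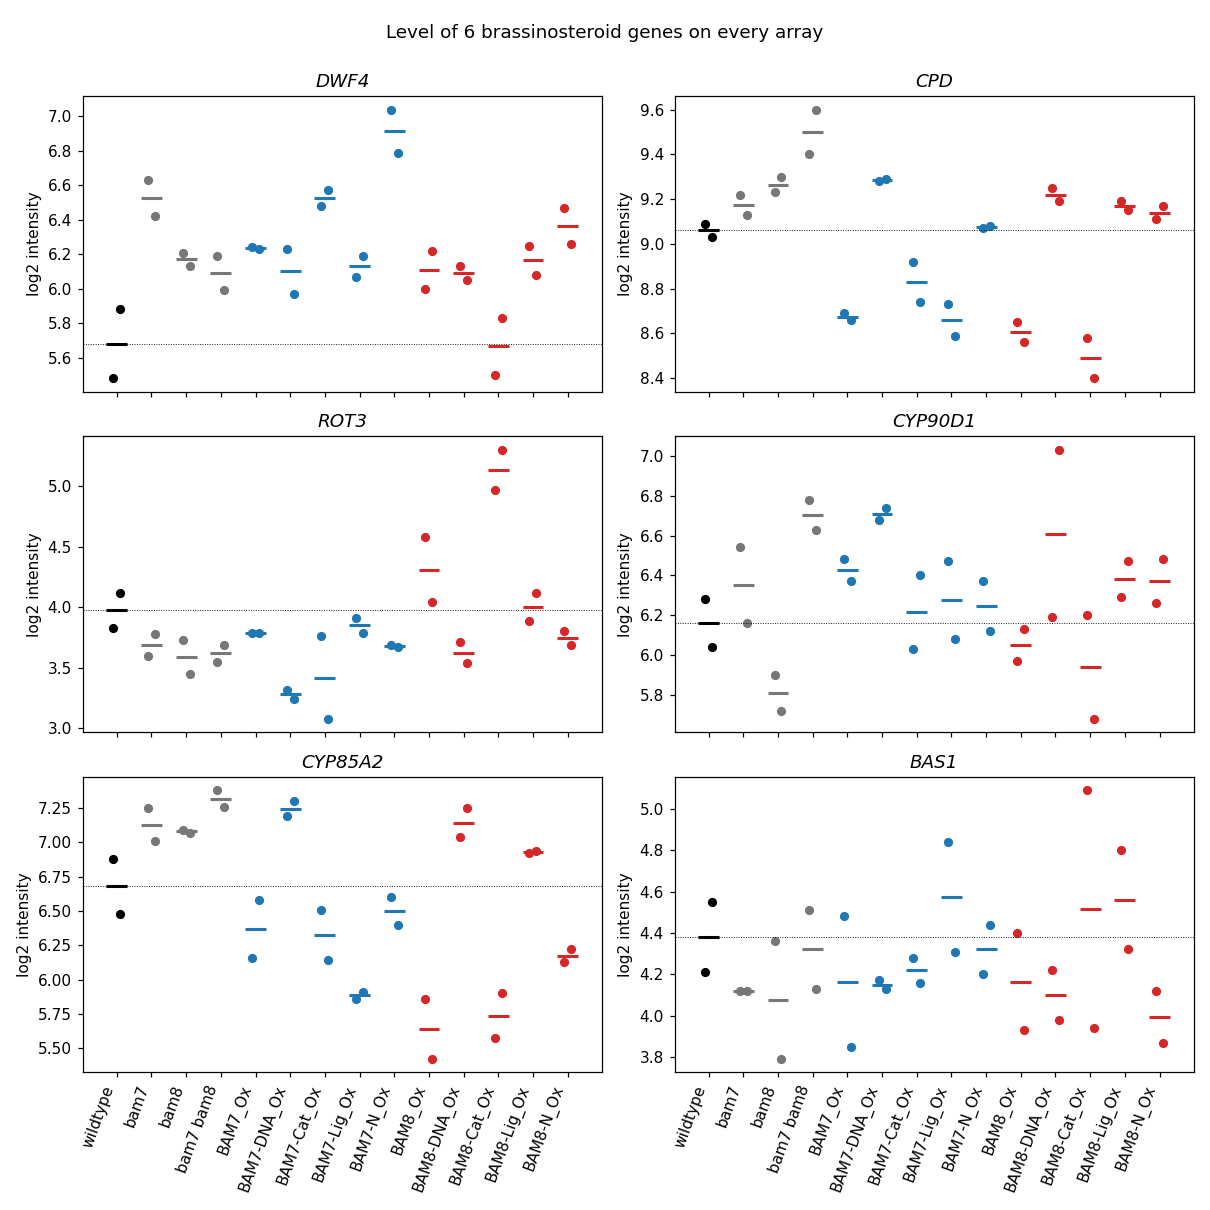
Log2 intensity of the 6 genes on each of the 28 arrays (points) with the mean of each group of 2 (bars) and the wild type mean (dotted line); black is wild type, grey the mutants, blue the BAM7 lines and red the BAM8 lines. CPD and CYP85A2 are lowest in BAM8_Ox and BAM8-Cat_Ox and highest in bam7 bam8, while DWF4 is lowest in wild type and BAM8-Cat_Ox, and ROT3 is highest in BAM8-Cat_Ox.

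Against wild type, 9 of 78 pairs of gene and line were called, where 0.64% of all such pairs passed over the whole array. The 13 comparisons share the wild type arrays. DWF4 was higher in 4 lines, CPD and CYP85A2 were each lower in the same 2 lines, BAM8_Ox and BAM8-Cat_Ox, and ROT3 was higher in BAM8-Cat_Ox. The wild type arrays themselves carried weight: 2 of the calls were made without wild type replicate 1 and 13 without wild type replicate 2.

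CPD and CYP85A2 fell in BAM8_Ox and BAM8-Cat_Ox. CPD encodes CYP90A1, a P450 of the middle of the pathway whose loss causes dwarfism, and CYP85A2 encodes the enzyme of the last steps, which yield castasterone and brassinolide. CPD stood at 9.09 and 9.03 in wild type, at 8.65 and 8.56 in BAM8_Ox and at 8.58 and 8.40 in BAM8-Cat_Ox. Both lines lay wholly below wild type. CPD fell by 0.45 (1.37-fold, SE 0.0872, adjusted p 0.0197) in BAM8_Ox and by 0.57 (1.48-fold, SE 0.0872, adjusted p 0.00305) in BAM8-Cat_Ox. CYP85A2 stood at 6.88 and 6.48 in wild type, at 5.86 and 5.42 in BAM8_Ox and at 5.57 and 5.90 in BAM8-Cat_Ox. Here too no array of the overexpressors reached the wild type. CYP85A2 fell by 1.04 (2.05-fold, SE 0.174, adjusted p 0.00636) in BAM8_Ox and by 0.95 (1.93-fold, SE 0.174, adjusted p 0.0132) in BAM8-Cat_Ox. In BAM8_Ox these were 2 of the 6 genes, where 0.132% of all probe sets were called lower, and in BAM8-Cat_Ox the share called lower was 0.171%. Without wild type replicate 1, CYP85A2 lost the call in both lines and CPD lost it in BAM8_Ox. The BAM8_Ox calls of both genes were also lost without BAM8_Ox replicate 2, and that of CPD without the 4 arrays of lowest 25th percentile (adjusted p 0.0542). In BAM8-Cat_Ox CYP85A2 lost its call without replicate 1 of that line and CPD without replicate 2.

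**Figure D2:**
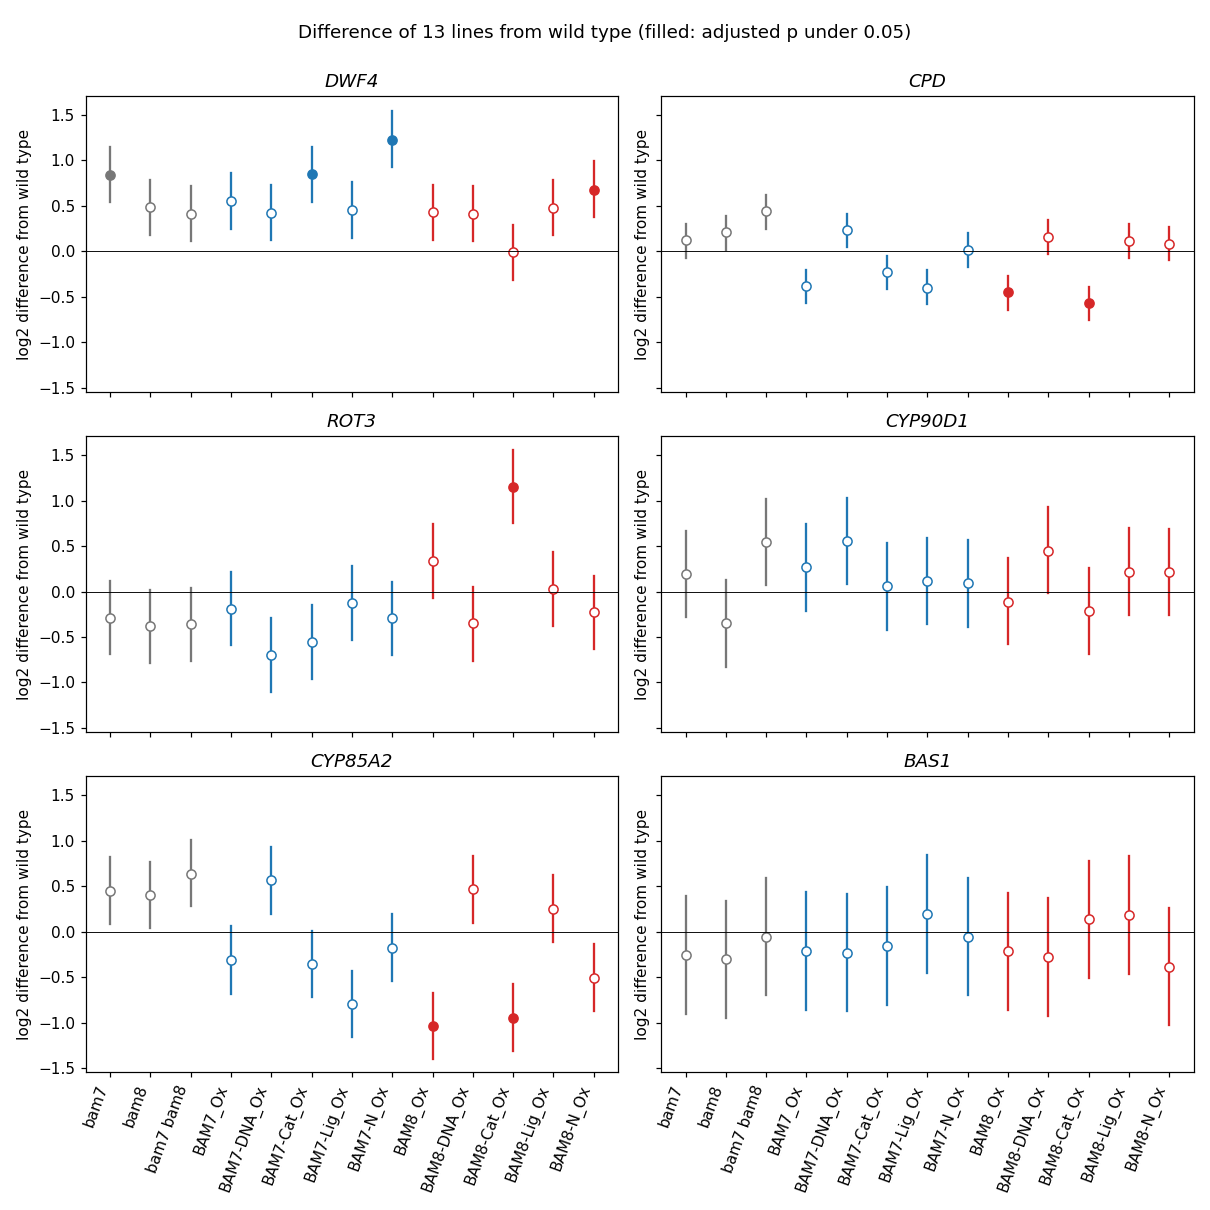
Log2 difference of each of 13 lines from wild type for the 6 genes, with 95% confidence intervals from the pooled fit; filled points passed an adjusted p of 0.05, and all points share the 2 wild type arrays. Filled points lie below 0 for CPD and CYP85A2 in BAM8_Ox and BAM8-Cat_Ox, and above 0 for DWF4 in bam7, BAM7-Cat_Ox, BAM7-N_Ox and BAM8-N_Ox and for ROT3 in BAM8-Cat_Ox.

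BAM8-Cat_Ox and BAM8_Ox were not distinguished for these genes. CPD differed between them by -0.12 (95% interval -0.30 to 0.07, adjusted p 0.968) and CYP85A2 by 0.09 (95% interval -0.27 to 0.46, adjusted p 1). In BAM7_Ox, CPD was at 8.69 and 8.66, wholly below wild type, but its difference of -0.38 did not pass (SE 0.0872, adjusted p 0.152). CYP85A2 in BAM7_Ox, at 6.16 and 6.58, overlapped wild type, with a difference of -0.31 (adjusted p 0.429). Set directly against each other, CYP85A2 was lower in BAM8_Ox than in BAM7_Ox by a value that missed the threshold (-0.73, SE 0.174, adjusted p 0.0902) but passed without BAM8_Ox replicate 1, and for CPD the difference was -0.07 (95% interval -0.25 to 0.11, adjusted p 0.849).

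The DNA lines had higher CPD and CYP85A2 than the unsuffixed line of the same protein, for BAM7 and for BAM8 alike. Of 48 pairs of gene and suffixed line, 9 were called, all higher, and 8 of these 9 concerned CPD (5) and CYP85A2 (3). Over the whole array 1.08% of pairs passed. The comparisons of each protein share the arrays of its unsuffixed line, so these calls are not independent. CPD was at 9.28 and 9.29 in BAM7-DNA_Ox and at 9.25 and 9.19 in BAM8-DNA_Ox, so that each DNA line lay wholly above its unsuffixed line. It was higher by 0.61 in both, with adjusted p 0.00185 for BAM7-DNA_Ox and 0.0011 for BAM8-DNA_Ox (SE 0.0872). CYP85A2 was at 7.19 and 7.30 in BAM7-DNA_Ox and at 7.04 and 7.25 in BAM8-DNA_Ox. CYP85A2 was higher than in the unsuffixed line by 0.88 (1.84-fold, SE 0.174, adjusted p 0.0304) for BAM7 and by 1.5 (2.84-fold, SE 0.174, adjusted p 7.77e-05) for BAM8. Of all probe sets, 0.18% were called higher in BAM7-DNA_Ox and 0.237% in BAM8-DNA_Ox. By size, the BAM8-DNA_Ox value was the third largest rise of all probe sets in that comparison. The CYP85A2 call for BAM7 was lost without BAM7_Ox replicate 1, an array of low 25th percentile, and without either array of BAM7-DNA_Ox, while the CPD call was kept in each case. When the 4 arrays with the lowest 25th percentile were dropped, BAM7_Ox replicate 1 among them, the CPD call for BAM7 was lost too (adjusted p 0.0593). The difference between the BAM8 and BAM7 values was not detected for CYP85A2 (0.63, 95% interval 0.11 to 1.14, adjusted p 0.375). Neither DNA line was called against wild type for CPD or CYP85A2.

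The Lig lines of BAM7 and BAM8 went apart. BAM8-Lig_Ox had CPD at 9.19 and 9.15 and CYP85A2 at 6.92 and 6.94, all above the arrays of BAM8_Ox, whereas BAM7-Lig_Ox had CPD at 8.73 and 8.59 and CYP85A2 at 5.86 and 5.91. Against BAM8_Ox, BAM8-Lig_Ox was higher by 0.57 for CPD (SE 0.0872, adjusted p 0.00265) and by 1.29 for CYP85A2 (2.45-fold, SE 0.174, adjusted p 0.000646). In that comparison 0.382% of all probe sets were called higher. BAM8-Lig_Ox was not called against wild type, with differences of 0.11 for CPD (adjusted p 0.491) and 0.25 for CYP85A2 (adjusted p 0.44). BAM7-Lig_Ox differed from BAM7_Ox by -0.01 for CPD (95% interval -0.20 to 0.17, adjusted p 0.958) and by -0.49 for CYP85A2 (95% interval -0.85 to -0.12, adjusted p 0.306). The Lig effect in BAM8 minus that in BAM7 was 1.78 for CYP85A2 (SE 0.246, adjusted p 0.00194) and 0.58 for CPD (SE 0.123, adjusted p 0.042). Over the 5 differences of differences, these were the 2 calls among 30 pairs, against 0.277% of all pairs on the array, and in the Lig comparison 0.246% of all probe sets passed in that direction. The CYP85A2 value passed in 16 of 17 alternatives, all but the fit of only the groups compared, and the CPD value in 7 of 17. Set side by side, BAM8-Lig_Ox exceeded BAM7-Lig_Ox by 1.05 for CYP85A2 (2.07-fold, SE 0.174, adjusted p 0.0185) and by 0.51 for CPD (1.42-fold, SE 0.0872, adjusted p 0.0204), where 0.106% of all probe sets were called higher. Leaving out either BAM8-Lig_Ox array ended both calls, and leaving out BAM7-Lig_Ox replicate 2 ended that of CPD. The CPD call was also lost with the 25th percentile as a covariate (adjusted p 0.0613), and both were lost without the 4 arrays where it was lowest (adjusted p 0.144 for CPD and 0.0671 for CYP85A2), which include BAM8-Lig_Ox replicate 1. BAM7-Lig_Ox was below wild type by -0.80 for CYP85A2 and by -0.40 for CPD, without passing (adjusted p 0.217 for both), although the CYP85A2 value passed without wild type replicate 2.

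In the N lines CPD was again higher than in the unsuffixed lines, but neither N line was called against wild type for CPD. CPD differed from wild type by 0.01 in BAM7-N_Ox (adjusted p 0.939) and by 0.08 in BAM8-N_Ox (adjusted p 0.564). BAM7-N_Ox read 9.07 and 9.08 and BAM8-N_Ox 9.11 and 9.17 for CPD, above every array of BAM7_Ox and BAM8_Ox. The difference from the unsuffixed line was 0.40 for BAM7-N_Ox (SE 0.0872, adjusted p 0.0147) and 0.54 for BAM8-N_Ox (SE 0.0872, adjusted p 0.00238). The BAM7-N_Ox call for CPD was lost when any 1 of its 4 arrays was left out, and without the 4 arrays of lowest 25th percentile (adjusted p 0.092). CYP85A2 was 0.53 above BAM8_Ox in BAM8-N_Ox without passing (SE 0.174, adjusted p 0.164), and was under wild type there (log2 difference -0.51, adjusted p 0.109), a value that passed without wild type replicate 2. Both N lines differed from the unsuffixed lines at many probe sets, with 1.53% called higher for BAM7-N_Ox and 0.972% for BAM8-N_Ox.

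**Figure D3:**
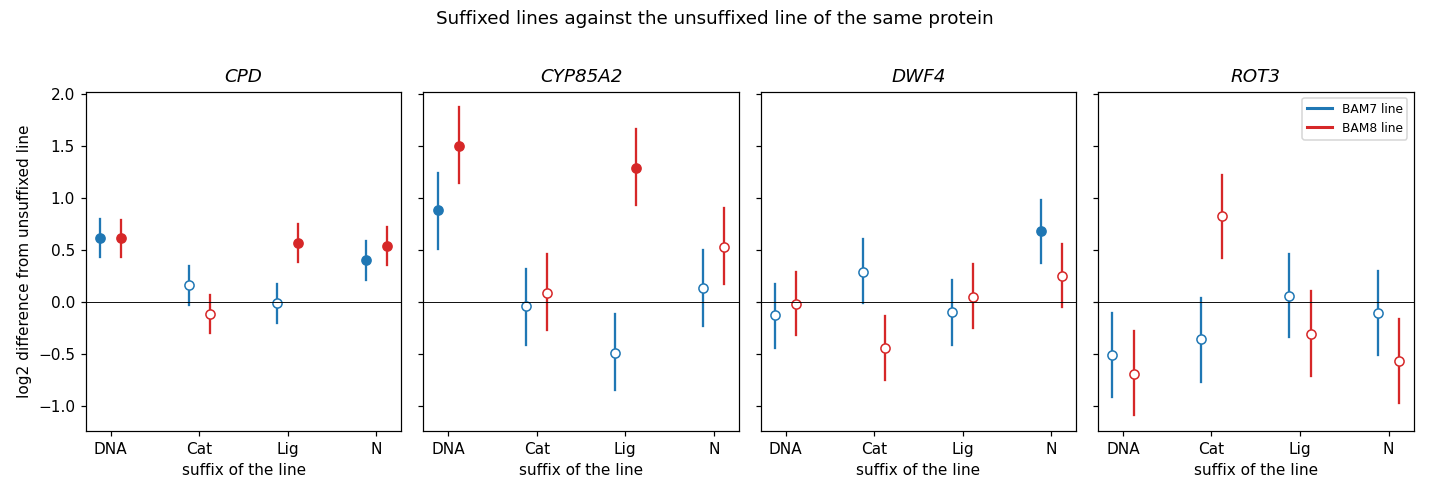
Log2 difference of each suffixed line from the unsuffixed line of the same protein for CPD, CYP85A2, DWF4 and ROT3, with 95% confidence intervals; blue is BAM7, red is BAM8, and filled points passed an adjusted p of 0.05. For CPD and CYP85A2 both DNA lines lie above 0, and of the Lig lines the BAM8 line lies above 0. All points of a protein share the arrays of its unsuffixed line.

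DWF4 followed another order. It encodes CYP90B1, the hydroxylase of an early step that is widely held to limit the rate of synthesis. DWF4 was at 5.48 and 5.88 in wild type and at 5.50 and 5.83 in BAM8-Cat_Ox. On the arrays of the other 12 lines it lay wholly above wild type, and 12 of 13 differences from wild type were positive, of which 4 passed. All 13 use the same 2 wild type arrays, so they are not independent. It stood at 7.04 and 6.79 in BAM7-N_Ox, at 6.47 and 6.26 in BAM8-N_Ox, at 6.48 and 6.57 in BAM7-Cat_Ox and at 6.63 and 6.42 in bam7. The rise was 1.23 in BAM7-N_Ox (2.35-fold, SE 0.145, adjusted p 6.42e-05), 0.68 in BAM8-N_Ox (1.61-fold, adjusted p 0.013), 0.85 in BAM7-Cat_Ox (adjusted p 0.0354) and 0.84 in bam7 (adjusted p 0.0395). Of all probe sets, 1.76% were called higher in BAM7-N_Ox, 2.1% in BAM8-N_Ox, 0.044% in BAM7-Cat_Ox and 0.044% in bam7. The wild type replicates spread most of all 14 groups for DWF4 (SD 0.282), and without wild type replicate 1 the bam7, BAM7-Cat_Ox and BAM8-N_Ox calls were lost, with that of BAM7-N_Ox kept. The bam7 call was also lost without bam7 replicate 1, that of BAM7-Cat_Ox without its replicate 2 and that of BAM8-N_Ox without its replicate 1. Array weights ended the bam7 call (adjusted p 0.327) and the BAM7-Cat_Ox call (adjusted p 0.394), as did leaving out the 4 arrays of lowest 25th percentile (adjusted p 0.369 and 0.0996). With the 25th percentile as a covariate the bam7 (adjusted p 0.3) and BAM8-N_Ox (adjusted p 0.149) calls were lost, and cyclic loess ended that of bam7 (adjusted p 0.0727). In all, the bam7 call was lost in 8 of 13 alternatives.

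Comparisons that do not use wild type gave 2 further DWF4 calls. Between BAM8 lines and the BAM7 lines of the same form, 4 of 30 pairs of gene and comparison were called, against 0.652% of all pairs on the array. BAM7-N_Ox exceeded BAM7_Ox, at 6.24 and 6.23, by 0.68 (1.60-fold, SE 0.145, adjusted p 0.0126), and the call ended without BAM7_Ox replicate 1, without BAM7_Ox replicate 2, without BAM7-N_Ox replicate 1 or without the 4 arrays of lowest 25th percentile (adjusted p 0.104). BAM8-N_Ox against BAM8_Ox gave 0.25 (95% interval -0.05 to 0.56, adjusted p 0.507). BAM8-N_Ox was lower than BAM7-N_Ox by a value that did not pass (-0.55, SE 0.145, adjusted p 0.103). DWF4 was lower in BAM8-Cat_Ox than in BAM7-Cat_Ox by -0.86 (1.82-fold, SE 0.145, adjusted p 0.00542), where 0.55% of all probe sets were called lower. This call was lost with array weights (adjusted p 0.0777). The Cat effect in BAM8 minus that in BAM7 did not pass for DWF4 (-0.74, SE 0.205, adjusted p 0.267).

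ROT3 rose in BAM8-Cat_Ox. ROT3 encodes CYP90C1, which acts with the related CYP90D1 on the sterol side chain and takes its name from the rounded leaves of its mutant. Its level was 4.97 and 5.30 in BAM8-Cat_Ox, 4.58 and 4.04 in BAM8_Ox, and 3.83 and 4.12 in wild type. The BAM8-Cat_Ox arrays were the highest of all 28, while BAM8_Ox overlapped wild type. ROT3 was higher than wild type by 1.15 in BAM8-Cat_Ox (2.23-fold, SE 0.192, adjusted p 0.00641), and 0.422% of all probe sets were called higher there. The call was lost without wild type replicate 1 or without BAM8-Cat_Ox replicate 2. In BAM8_Ox the difference was 0.34 (95% interval -0.07 to 0.74, adjusted p 0.722). BAM8-Cat_Ox was above BAM8_Ox by 0.82 without passing (SE 0.192, adjusted p 0.179), but the value passed without BAM8_Ox replicate 1. Against BAM7-Cat_Ox, at 3.76 and 3.08, it was higher by 1.71 (3.26-fold, SE 0.192, adjusted p 8.24e-05), where 0.963% of all probe sets were called higher. But the replicates of BAM7-Cat_Ox spread most of all groups for ROT3 (SD 0.48), and its replicate 2 lay at percentile 25.4 of the array. Over 12 alternatives this difference lay between 1.37 and 2.05, and the fit of only the groups compared ended the call. The lowest mean of ROT3 was that of BAM7-DNA_Ox, at 3.32 and 3.24, with a difference from wild type of -0.70 that did not pass (SE 0.192, adjusted p 0.253).

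CYP90D1 and BAS1 gave no call in any of the 33 comparisons. Calls were rare over the whole array too. The share of all pairs called ran from 0.106% between bam7 bam8 and the mutants of 1 gene to 1.08% for suffixed against unsuffixed lines. CYP90D1 ranged from 5.68 to 7.03 over the arrays, with a median of 6.28. Its highest array belonged to BAM8-DNA_Ox, where the replicates read 6.19 and 7.03. The CYP90D1 differences from wild type lay between -0.35 and 0.56, with adjusted p from 0.323. CYP90D1 in bam7 bam8, at 6.78 and 6.63, exceeded bam8, at 5.90 and 5.72, by 0.90 without passing (SE 0.226, adjusted p 0.22), although the call was made with array weights. BAS1 ranged from 3.79 to 5.09, with a median of 4.20, and its replicates spread most in BAM8-Cat_Ox, at 5.09 and 3.94 (SD 0.813). The BAS1 differences from wild type lay between -0.39 and 0.20, and none of the 13 had an unadjusted p under 0.05. With an SE of 0.307 for BAS1 against 0.0872 for CPD, changes of the size seen for CPD could not have been resolved for BAS1.

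In the mutants, CPD and CYP85A2 lay above wild type on every array, but no difference passed. CPD was at 9.22 and 9.13 in bam7, at 9.23 and 9.30 in bam8 and at 9.40 and 9.60 in bam7 bam8, all above both wild type arrays. The bam7 bam8 difference of 0.44 just missed the threshold (SE 0.0872, adjusted p 0.0507) and passed in 3 of 13 alternatives. CYP85A2 was at 7.38 and 7.26 in bam7 bam8, a difference of 0.64 (SE 0.174, adjusted p 0.219). DWF4 was at 6.21 and 6.13 in bam8 and at 6.19 and 5.99 in bam7 bam8, with differences from wild type of 0.49 (adjusted p 0.483) and 0.41 (adjusted p 0.362). Of the 6 genes, only DWF4 in bam7 was called in a mutant against wild type, where 0.044% of all probe sets were called higher. In bam8 0.0044% of all probe sets were called in either direction, and in bam7 bam8 0.18%. None of the 6 was called between bam7 bam8 and bam7 or bam8, where 0.106% of all pairs passed. Of the 12 pairs, 4 had an unadjusted p under 0.05. Of all 22746 probe sets, 1402 did so for bam7 bam8 against bam7 and 1611 for bam7 bam8 against bam8. The interaction of both mutations was -0.92 for DWF4 (SE 0.205, adjusted p 0.147), which did not pass with all arrays but passed without wild type replicate 2.

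The order of the 14 groups was alike for CPD and CYP85A2 and unlike for DWF4. Over the 14 group means, which come from the same arrays for every gene, CPD and CYP85A2 correlated with Pearson r 0.90 and Spearman rho 0.93, and with Pearson r 0.84 over the 12 groups left without BAM8_Ox and BAM8-Cat_Ox. CPD ran from bam7 bam8 (9.50) through wild type (9.06, ninth from the top) to BAM8-Cat_Ox (8.49), and neighbouring groups in that order had separate arrays in 4 of 13 cases. CYP85A2 ran from bam7 bam8 (7.32) through wild type (6.68) to BAM8_Ox (5.64), with separate neighbours in 3 of 13 cases. DWF4 gave Pearson r 0.19 with CPD and 0.11 with CYP85A2, and ROT3 gave -0.65 with CPD, which became -0.27 without BAM8_Ox and BAM8-Cat_Ox. Among the 1399 other probe sets that passed the F test, CYP85A2 was the second closest to CPD in pattern, after 267367_AT (Pearson r 0.903), and CPD the second closest to CYP85A2, after 259839_AT (Pearson r 0.934). The closest to DWF4 was 245688_AT (Pearson r 0.918) and the closest to ROT3 was 246932_AT (Pearson r 0.943).

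**Figure D4:**
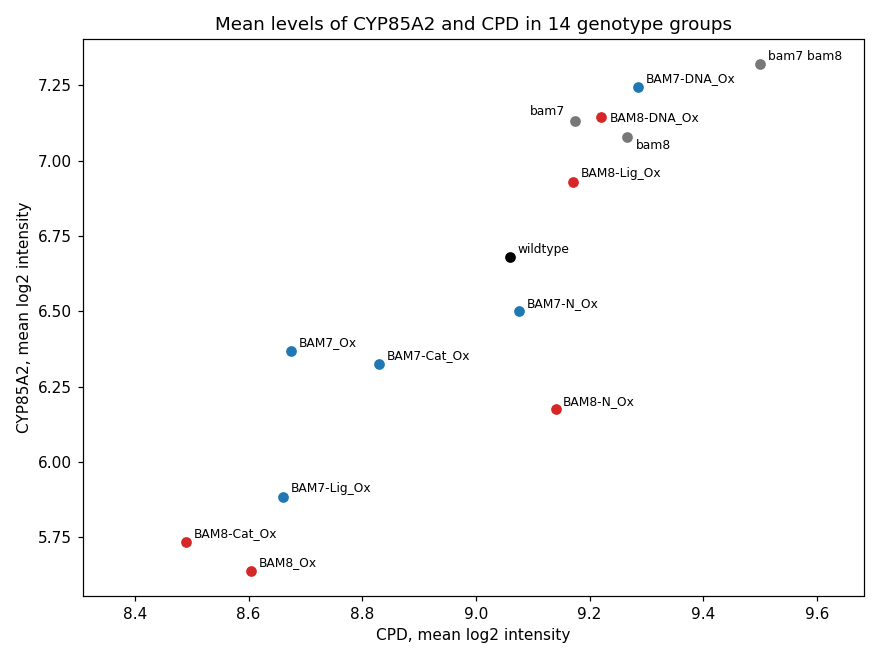
Mean log2 intensity of CYP85A2 (vertical) against that of CPD (horizontal) in the 14 groups, each point the mean of 2 arrays; black is wild type, grey the mutants, blue the BAM7 lines and red the BAM8 lines. BAM8_Ox, BAM8-Cat_Ox and BAM7-Lig_Ox lie at the low end of both genes and bam7 bam8 at the high end.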

How the data were processed

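Each array's deposited value for a probe set is an intensity, linear by its range of 2.89 to 22277. Per the submitters' processing notes the authors used RMA, whose version is not given in the sources used here, and that its log2 output was turned back to linear intensity is an inference from that range. The number of arrays limits the precision.

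For testing, log2 of the deposited intensity was taken. From 22747 probe sets a single control was removed, and low values were kept. A model with 1 mean for each group, using every array, was fitted in limma 3.58.1 (R 4.3.3; 14 residual and 3.67 prior degrees of freedom). From it came 33 two-sided comparisons: 13 lines against wild type, 8 suffixed against unsuffixed lines, 5 BAM8 lines against the BAM7 line of the same form, bam7 bam8 against each of bam7 and bam8, and 5 differences of differences. P-values were adjusted within a comparison, not across the 33. Figures used matplotlib 3.10.9 in Python 3.11.15.

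The members, lists and comparisons were chosen with earlier results of these data known. All 6 genes are named, and for each the probe sets closest by Pearson r of group means were sought among those that passed the F test. For want of an array annotation in the sources used here, the planned list of other pathway genes, the tissue markers and the levels of BAM7 and BAM8 were not analysed here, and promoter sequences were not used. The labels call the replicates biological. Alternatives were a fit restricted to the groups of a comparison, a filter on dim probe sets (15164 kept, with all 6 genes), robust limma with a mean-variance trend, a block for the replicate number, cyclic loess normalization, array weights, the 25th percentile of each array as covariate, omission of the 4 arrays where it was lowest, omission of BAM7-Cat_Ox, and omission of each array in turn. A group left with 1 array is assumed to vary like the others.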

Additional observations from a re-analysis of the deposited data

Results flagged for a closer look

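The Lig line differed from the unsuffixed line by another amount in BAM8 than in BAM7, by the test of that difference itself. Whether the suffix or another difference between the lines underlies this was not tested. For CYP85A2 the effect in BAM8 (1.29) minus that in BAM7 (-0.49) was 1.78 (SE 0.246, limma adjusted p 0.00194). For CPD the effects were 0.57 and -0.01, and their difference was 0.58 (SE 0.123, limma adjusted p 0.042). BAM8-Lig_Ox replicate 1 and BAM7_Ox replicate 1 are among the arrays with the lowest 25th percentile. With the 4 such arrays left out, the CYP85A2 difference kept its call and the CPD difference lost it.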

How the results depend on the processing

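None of the 24 called differences of the 6 genes changed direction in any alternative run, which says little. Several alternatives leave the group means as they are. Called pairs of groups also had separate arrays, so that dropping 1 array could not turn the sign for them. This does not cover the 2 called differences of differences. Of the 24, 8 lost the call in at most 1 alternative, and 10 lost it in more than 3. Fitting only the groups compared left 0 calls of 9 against wild type and 1 of 9 for suffixed lines. It left 0 of 4 for BAM8 against BAM7 lines and 0 of 2 differences of differences. Such fits have few degrees of freedom, with 2 arrays a group, and the cause of the losses was not tested. Leaving out the 4 arrays of lowest 25th percentile left 6 calls against wild type and 5 for suffixed lines. It left 2 for BAM8 against BAM7 lines and 1 difference of differences. Leaving out the dimmest probe sets, or taking the 25th percentile as a covariate, left 1 difference of differences. Array weights gave 1 call between bam7 bam8 and the mutants of 1 gene, where there had been 0. Leaving out 1 array at a time gave 2 to 13 calls against wild type, 6 to 10 for suffixed lines, 2 to 5 for BAM8 against BAM7 lines, 1 to 3 differences of differences and 4 to 5 genes in the F test, which otherwise named 4, or 5 with array weights. The labels give replicate numbers but no shared batch or day, and the replicate differences of 91 pairs of groups correlated between -0.381 and 0.434. With the replicate number as a block the calls against wild type went from 9 to 8, with that of DWF4 in bam7 lost (adjusted p 0.0569), and 9, 4, 0 and 2 were kept in number for the other comparisons. Of the uncalled pairs among 198 pairs of gene and comparison, 32 were followed through the alternatives, and the sign turned for 3 of these. The CPD value of BAM7-Lig_Ox against BAM7_Ox became 0.0417 with the covariate, 0.000193 without the 4 arrays or without BAM7_Ox replicate 1, and 0.0594 without BAM7-Lig_Ox replicate 2, the highest of -0.0833 to 0.0594 over single arrays left out. The DWF4 value of BAM8-Cat_Ox against wild type became 0.186 without wild type replicate 2 and 0.153 without BAM8-Cat_Ox replicate 1, in a range of -0.214 to 0.186. The CYP85A2 value of BAM8-Cat_Ox against BAM8_Ox became -0.0734 without BAM8-Cat_Ox replicate 2 and -0.125 without BAM8_Ox replicate 2, in a range of -0.125 to 0.307. The cause of these changes was not tested.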
